A study of Mus musculus with 6 samples.

Results

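The 30 genes described here are markers of reactive astrocytes, chosen by symbol from the 33000 genes of the count table. They form 3 subsets of a panel in common use, with 9 pan-reactive markers (Lcn2, Steap4, S1pr3, Timp1, Hspb1, Cxcl10, Cd44, Serpina3n and Aspg), 9 A1 markers (Iigp1, Gbp2, Srgn, Amigo2, Fbln5, Ugt1a1, Fkbp5, Ggta1 and Serping1) and 12 A2 markers (Clcf1, Tgm1, Ptx3, S100a10, Sphk1, Cd109, Ptgs2, Emp1, Slc10a6, Tm4sf1, B3gnt5 and Cd14). All 30 symbols were found, each in a single row. Libraries were prepared with the TruSeq mRNA protocol from the frontal cortex of 3 wild-type (WT) mice and 3 homozygous GFAP-IL6 mice, all aged 3 months and of the C57BL/6 strain. GFAP-IL6 mice express the inflammatory cytokine IL6 from a transgene under the promoter of Gfap, an astrocyte gene. Each library came from bulk tissue, in which more cells of a type and more RNA per cell cannot be told apart.

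Astrocytes respond to injury, infection and inflammatory cytokines by changing shape and gene expression, a state called reactive gliosis. Pan-reactive markers were defined as genes induced in astrocytes by both systemic endotoxin and ischaemia, A1 markers as genes induced mainly by endotoxin and A2 markers as genes induced mainly by ischaemia. IL6 acts through its receptor and the shared subunit gp130 on JAK kinases and the transcription factor STAT3, which drives Gfap and the feedback inhibitor Socs3 in astrocytes.

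Total counts were 11591066 to 16877001 in WT and 7559524 to 11072008 in GFAP-IL6, so that low genes were measured less precisely in GFAP-IL6. Levels are given as CPM (counts scaled to a common library total, with the TMM factors of edgeR), and 3 counts corresponded to between 0.179 and 0.396 CPM. Il6 had 0, 2 and 0 counts in WT against 12, 10 and 24 in GFAP-IL6, and Gfap rose from 94.5 ± 24.8 to 678 ± 178.5 CPM (SD, n = 3 each), at a log2 fold change of 2.84 ± 0.20 (SE; adjusted p of 5.49e-06 by edgeR). Neither gene's counts separate the transgene from the endogenous gene. Of 12 genes of astrocyte identity, all 12 were tested and 1, Gfap itself, changed. WT replicate 3 stood apart by its choroid plexus markers, with 8766 counts of Ttr against 15 and 187 in the other WT libraries and 15 to 358 in GFAP-IL6. The same 4 members passed the test without this library.

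The levels were low for this tissue. Compared per length, as TPM (counts per base of gene length, scaled to a common total), 29 of the 30 members lay below the median of 20.7 TPM that all genes tested had in WT. The exception was S100a10, at 67.6 ± 9.45 TPM (SD, n = 3). Fkbp5 followed at 18.3 ± 1.97 TPM, Serpina3n at 15.9 ± 2.05 TPM and Ptgs2 at 11.7 ± 1.19 TPM (SD, n = 3 each), and of these neighbours in the order Fkbp5 and Serpina3n were closer than their summed SDs. The filter on low counts was passed by 21 members, 5 pan-reactive, 8 A1 and 8 A2. Lcn2, Steap4, Timp1, Cxcl10, Ugt1a1, Tgm1, Ptx3, Slc10a6 and B3gnt5 were not tested.

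**Figure D1:**
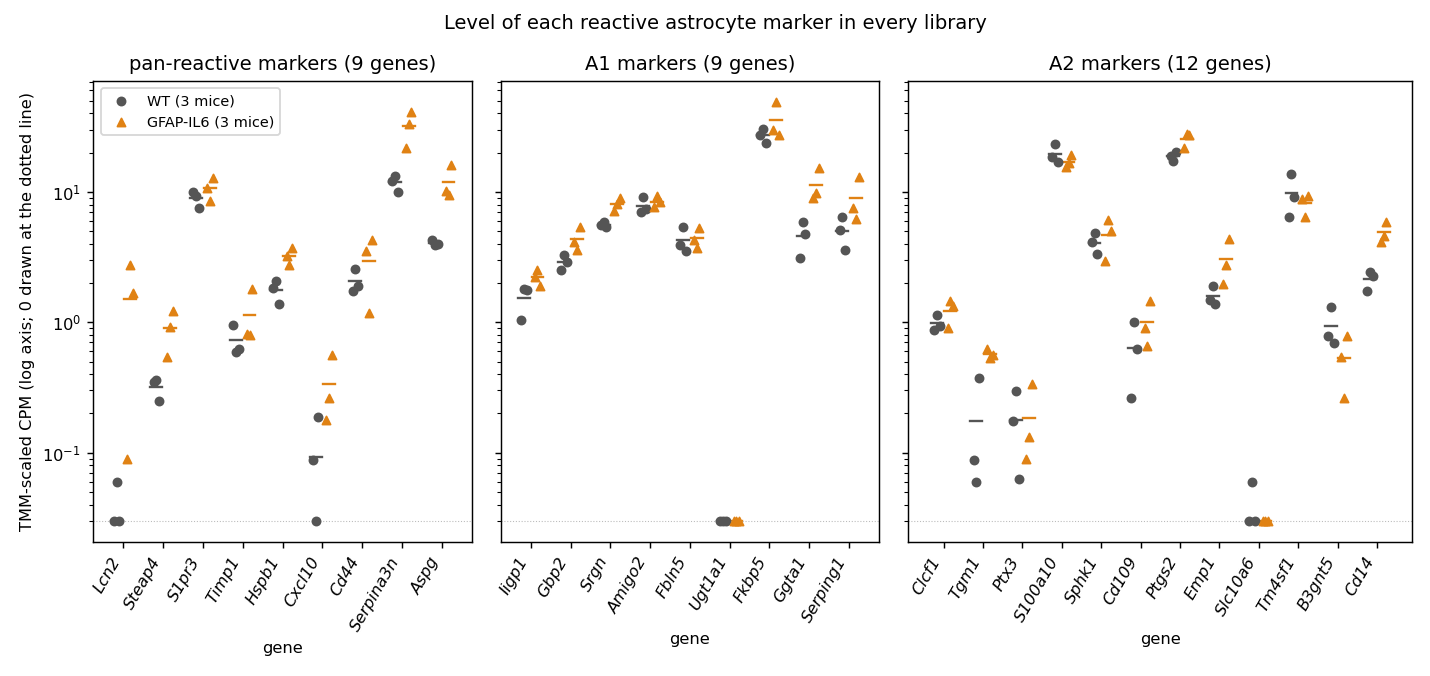
Level of each of the 30 markers in every library, as TMM-scaled CPM on a log axis, with 0 drawn at the dotted line. Circles are the 3 WT mice, triangles the 3 GFAP-IL6 mice and short lines the group means, and the groups are separate for Aspg, Serpina3n, Ggta1 and Cd14 but overlap for Cd44, Amigo2, S100a10 and Tm4sf1, among others.

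The comparison between genotypes asks which of the subsets moved in mice with IL6 made by astrocytes. In total 4 of the 30 members changed, that is, had an adjusted p under 0.05 by edgeR over all 15341 genes tested, and all 4 were higher in GFAP-IL6. They were Aspg and Serpina3n among the 9 pan-reactive markers, Ggta1 among the 9 A1 markers and Cd14 among the 12 A2 markers. Over all genes tested, 2.65% were higher and 0.209% were lower by this rule, and no member was lower. The 4 members also had a log2 fold change over 1, the threshold of the study for a differentially expressed gene, as did 1.36% of all genes tested in the higher direction. At an unadjusted p under 0.05, 10 members were higher and 0 were lower, where 11.1% and 9.37% of all genes tested were. In 10 of the 21 members tested each GFAP-IL6 library lay above each WT library, and in 0 each lay below. These patterns were seen in 13.8% and 12.7% of all genes tested. Lcn2, Steap4 and Tgm1, which were not tested, had the first pattern at few counts, and these shares do not cover such genes. For each of these genes the pattern rests on scaling. GFAP-IL6 replicate 1 and WT replicate 2 had 1 count each of Lcn2 and 6 counts each of Steap4. Tgm1 had 6 counts in WT replicate 3 against 4 and 5 in GFAP-IL6 replicates 2 and 3.

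Aspg, which encodes an asparaginase, rose most among the members tested. Its levels were 4.27, 3.94 and 3.96 CPM in WT replicates 1, 2 and 3 and 10.1, 9.51 and 16.1 CPM in GFAP-IL6 replicates 1, 2 and 3. The lowest GFAP-IL6 library was thus well above the highest WT library, and GFAP-IL6 replicate 3 was the highest. The log2 fold change was 1.56 ± 0.21 (SE) with a 95% interval of 1.10 to 2.01 and an adjusted p of 0.000925 by edgeR. The gene (ENSMUSG00000037686.5) lies on chromosome 12 at 112106679 to 112127559 on the plus strand of GRCm38.

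Serpina3n, a secreted inhibitor of serine proteases, rose to the highest level among the pan-reactive markers. It was at 12.1, 13.3 and 10.05 CPM in WT against 21.6, 33.01 and 41.3 CPM in GFAP-IL6, without overlap. The log2 fold change was 1.43 ± 0.20 (SE; adjusted p of 0.00123 by edgeR). Serpina3n (ENSMUSG00000021091.8, chromosome 12, 104406729 to 104414329, plus strand) belongs to a cluster of similar genes, between which reads can be shared. Of the 9 other Serpina3 genes in the table, 6 had 0 counts in every library or 1 count in a single one, and Serpina3g had 0 in each WT library and 1, 9 and 3 in GFAP-IL6.

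Both pan-reactive calls held in all 13 alternative fits. Adjusted p values ranged from 1.56e-09 to 0.00499 for Aspg and from 1.76e-12 to 0.0107 for Serpina3n.

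Lcn2, a secreted lipocalin that binds bacterial siderophores and a widely used marker of gliosis, was too low to be tested. It had 0, 1 and 0 counts in WT against 1, 21 and 15 in GFAP-IL6. GFAP-IL6 replicates 2 and 3 were thus far above WT, while GFAP-IL6 replicate 1 was level with WT replicate 2. Pooled over libraries, the level was 59 times that of WT, with an exact 95% interval from 9.96 to 2390 that covers counting error only. Without the low-count filter Lcn2 had an adjusted p of 1.03e-05 by edgeR, a fit in which 3.54% of 22621 genes were higher at an adjusted p under 0.05. Across the 7 alternative fits that tested it, the adjusted p ranged from 1.03e-05 to 0.356, and 4 of the 7 had a value under 0.05. Among these was the edgeR fit without GFAP-IL6 replicate 1 (0.00118). Where a filter on low counts was kept, Lcn2 could enter only through its GFAP-IL6 counts, as WT had at most 1 count per library. The number of fits that it passed is therefore no support for a rise.

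The remaining pan-reactive markers did not pass the test. Hspb1, a small heat shock protein, had 1.83, 2.09 and 1.38 CPM in WT against 3.23, 2.77 and 3.68 CPM in GFAP-IL6. Its groups did not overlap, and its log2 fold change of 0.87 ± 0.26 (SE) had an adjusted p of 0.0979 by edgeR. Cd44, the receptor for hyaluronan, had 1.74, 2.57 and 1.88 CPM in WT against 3.50, 1.19 and 4.24 CPM in GFAP-IL6. GFAP-IL6 replicate 2 was below each WT library, whereas the other GFAP-IL6 libraries were above each of them. The log2 fold change of Cd44 was 0.55 with a 95% interval of -0.23 to 1.32. S1pr3, a receptor for sphingosine-1-phosphate, had a log2 fold change of 0.27 (95% interval -0.10 to 0.64).

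Among the low pan-reactive markers, Steap4, a metalloreductase, had 4, 6 and 4 counts in WT against 6, 7 and 11 in GFAP-IL6. The mean level was 0.319 ± 0.059 CPM in WT and 0.897 ± 0.346 CPM in GFAP-IL6 (SD, n = 3 each), and the groups did not overlap. Timp1, an inhibitor of metalloproteinases, had 6 to 16 counts per library in both groups. Its GFAP-IL6 replicate 3 was at 1.79 CPM and its other libraries were at 0.596 to 0.958 CPM. Cxcl10, an interferon-inducible chemokine, had 1, 0 and 3 counts in WT against 2, 2 and 5 in GFAP-IL6. In the fit without the low-count filter the adjusted p was 0.135 for Steap4, 0.495 for Timp1 and 0.357 for Cxcl10.

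Ggta1 was the A1 marker that rose. It encodes a galactosyltransferase that makes the alpha-gal epitope, which mice carry on cell surfaces and humans lack. Its levels were 3.14, 5.85 and 4.77 CPM in WT against 9.05, 9.77 and 15.2 CPM in GFAP-IL6. The groups did not overlap, and GFAP-IL6 replicate 3 was again the highest. The log2 fold change was 1.27 ± 0.24 (SE) with a 95% interval of 0.75 to 1.80 and an adjusted p of 0.0114 by edgeR. Without GFAP-IL6 replicate 3 the estimate was 1.01 with an adjusted p of 0.102, and in the other 12 alternative fits the gene passed. Ggta1 (ENSMUSG00000035778.15) lies on chromosome 2 at 35400179 to 35463231 on the minus strand.

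Serping1, the secreted inhibitor of the first complement component, was the next A1 marker by fold change. It had 5.14, 6.44 and 3.58 CPM in WT against 7.53, 6.21 and 13.1 CPM in GFAP-IL6. GFAP-IL6 replicate 2 lay below WT replicate 2, so that the groups overlapped. The log2 fold change was 0.82 ± 0.28 (SE; adjusted p of 0.133 by edgeR). It passed in 2 of the 13 alternative fits, without the low-count filter (0.00645) and without WT replicate 2 (0.0443), and the adjusted p was up to 0.484 in the others.

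The interferon-inducible GTPases among the A1 markers are Iigp1 and Gbp2, which act against intracellular pathogens. Gbp2 had 2.53, 3.28 and 2.89 CPM in WT against 4.12, 3.57 and 5.36 CPM in GFAP-IL6. Iigp1 had 1.05, 1.79 and 1.76 CPM in WT against 2.24, 2.51 and 1.90 CPM in GFAP-IL6. In both genes each GFAP-IL6 library was above each WT library, but by little. The log2 fold changes were 0.58 ± 0.22 and 0.49 ± 0.29 (SE), with adjusted p values of 0.182 and 0.35 by edgeR. Both belong to families of similar GTPases, and Gbp2b, the nearest relative of Gbp2 by name, had 0 counts in every library. Among 12 other interferon-inducible genes, 11 were tested and 1 was higher, Gbp7, with a log2 fold change of 0.71 and an adjusted p of 0.0157 by edgeR. Irf1, a transcription factor of the interferon response, had a log2 fold change of 0.62 with an adjusted p of 0.0803.

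Srgn, a proteoglycan of secretory granules in haematopoietic cells, was narrow in both groups. It had 5.58, 5.85 and 5.399 CPM in WT against 7.17, 8.06 and 9.04 CPM in GFAP-IL6, without overlap. Its log2 fold change of 0.52 ± 0.16 (SE) had an adjusted p of 0.11 by edgeR. Fkbp5, a co-chaperone of the glucocorticoid receptor that is itself induced by glucocorticoids, had 27.2, 30.4 and 23.8 CPM in WT against 29.8, 49.0 and 27.5 CPM in GFAP-IL6. GFAP-IL6 replicate 2 alone was above the WT range, and the log2 fold change moved from 0.37 to 0.08 without it. Of 8 other glucocorticoid-responsive genes 1 was higher, Map3k6, with a log2 fold change of 1.002 and an adjusted p of 0.0355 by edgeR. Zbtb16 and Per1, the next by p, had log2 fold changes of 0.54 and 0.49 with adjusted p values of 0.0531 and 0.155. By sign, 5 of the 8 estimates were positive and 3 were negative.

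The A1 markers Amigo2, an adhesion molecule, and Fbln5, a matrix protein of elastic fibres, had log2 fold changes near 0. These were 0.08 with a 95% interval of -0.27 to 0.43 for Amigo2 and 0.05 with an interval of -0.44 to 0.54 for Fbln5. The sign for Fbln5 was negative in 3 of the 6 fits that each left out 1 library. Neither interval reached a log2 fold change of 1. Ugt1a1, the enzyme that conjugates bilirubin, had 0 counts in every library. In the annotation 58.9% of its exon bases are shared with each of 8 other Ugt1a genes. Gm20528, on the opposite strand, overlaps 41.5% of its exon bases, and the strand setting of the counting is not given. Reads in shared exons could not be assigned to a single gene, so the 0 counts do not show that Ugt1a1 was silent. Ugt1a7c was the only gene of the Ugt1a cluster with counts, 4 to 11 per library.

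Cd14, a co-receptor for bacterial lipopolysaccharide that is mainly made by myeloid cells, was the A2 marker that rose. It had 1.74, 2.45 and 2.26 CPM in WT against 4.12, 4.62 and 5.92 CPM in GFAP-IL6. No library of one genotype reached the range of the other, and the log2 fold change was 1.16 ± 0.23 (SE) with a 95% interval of 0.65 to 1.67 and an adjusted p of 0.0168 by edgeR. The call was lost without GFAP-IL6 replicate 2 (adjusted p of 0.0554) and without GFAP-IL6 replicate 3 (0.14), with estimates of 1.19 and 1.0, and held in the other 11 alternative fits. Most markers of microglia, the resident myeloid cells, moved with it. Of 10 microglia markers 8 were higher, those with the smallest p being Itgam, C1qa and Csf1r. Siglech and P2ry12 did not pass, with log2 fold changes of 0.40 and -0.27 and adjusted p values of 0.103 and 0.291 by edgeR. The summed level of the 10 markers was 420 to 522 CPM in WT and 836 to 965 CPM in GFAP-IL6. The part of microglia in the level of Cd14 was not tested.

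Ptgs2, the inducible cyclooxygenase, and Emp1, a membrane protein of the claudin-like family, followed among the A2 markers. Ptgs2 had 18.7, 17.2 and 20.3 CPM in WT against 21.6, 28.0 and 27.4 CPM in GFAP-IL6. Emp1 had 1.48, 1.91 and 1.38 CPM in WT against 1.97, 2.77 and 4.35 CPM in GFAP-IL6. In both genes the GFAP-IL6 libraries lay above the WT libraries. The log2 fold changes were 0.44 ± 0.12 and 0.90 ± 0.32 (SE), with adjusted p values of 0.078 and 0.147 by edgeR. Ptgs2 passed in 3 of the 13 alternative fits, among them the fit without GFAP-IL6 replicate 1 (0.0447), and its adjusted p ranged from 0.0159 to 0.341.

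The A2 markers with negative estimates among those tested were S100a10, the partner of annexin A2, and Tm4sf1, a membrane protein of endothelial and tumour cells. S100a10 had 18.6, 23.1 and 17.01 CPM in WT against 15.5, 16.6 and 19.2 CPM in GFAP-IL6. Tm4sf1 had 6.45, 13.7 and 9.10 CPM in WT against 8.79, 6.47 and 9.27 CPM in GFAP-IL6. The groups overlapped in both genes, and WT replicate 2 was the highest library of each. The log2 fold changes were -0.20 (95% interval -0.50 to 0.10) and -0.26 (95% interval -0.78 to 0.26). Without WT replicate 2 the estimate for Tm4sf1 was 0.065.

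Sphk1, a kinase that makes sphingosine-1-phosphate, had a log2 fold change of 0.16, which became -0.056 without GFAP-IL6 replicate 2. Clcf1, a cytokine of the IL6 family, was at 0.982 ± 0.136 CPM in WT and 1.23 ± 0.294 CPM in GFAP-IL6 (SD, n = 3 each). Cd109, a membrane protein that binds TGF-beta, had 3, 17 and 10 counts in WT against 10, 5 and 13 in GFAP-IL6. The 95% intervals of these 3 genes were -0.41 to 0.73, -0.45 to 0.998 and -0.43 to 1.61, so that only that of Cd109 left room for a log2 fold change of 1.

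Among the A2 markers not tested, Tgm1, a transglutaminase of keratinocytes, had 1, 1 and 6 counts in WT against 7, 4 and 5 in GFAP-IL6. In CPM its GFAP-IL6 libraries, at 0.528 to 0.628, were above the highest WT library at 0.377. B3gnt5, a glycosyltransferase that starts lacto-series glycolipids, had 9, 22 and 11 counts in WT against 6, 2 and 7 in GFAP-IL6. The groups overlapped, as GFAP-IL6 replicate 3 was above WT replicate 3 in CPM, and the 3 alternative fits that tested B3gnt5 gave negative log2 fold changes of -0.81 to -0.12. Ptx3, a secreted pentraxin, had at most 5 counts in any library. Slc10a6, a transporter of sulfated steroids, had a single count in WT replicate 2 and none elsewhere. In the fit without the low-count filter the adjusted p was 0.205 for Tgm1, 0.449 for B3gnt5, 0.999 for Ptx3 and 0.72 for Slc10a6.

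**Figure D2:**
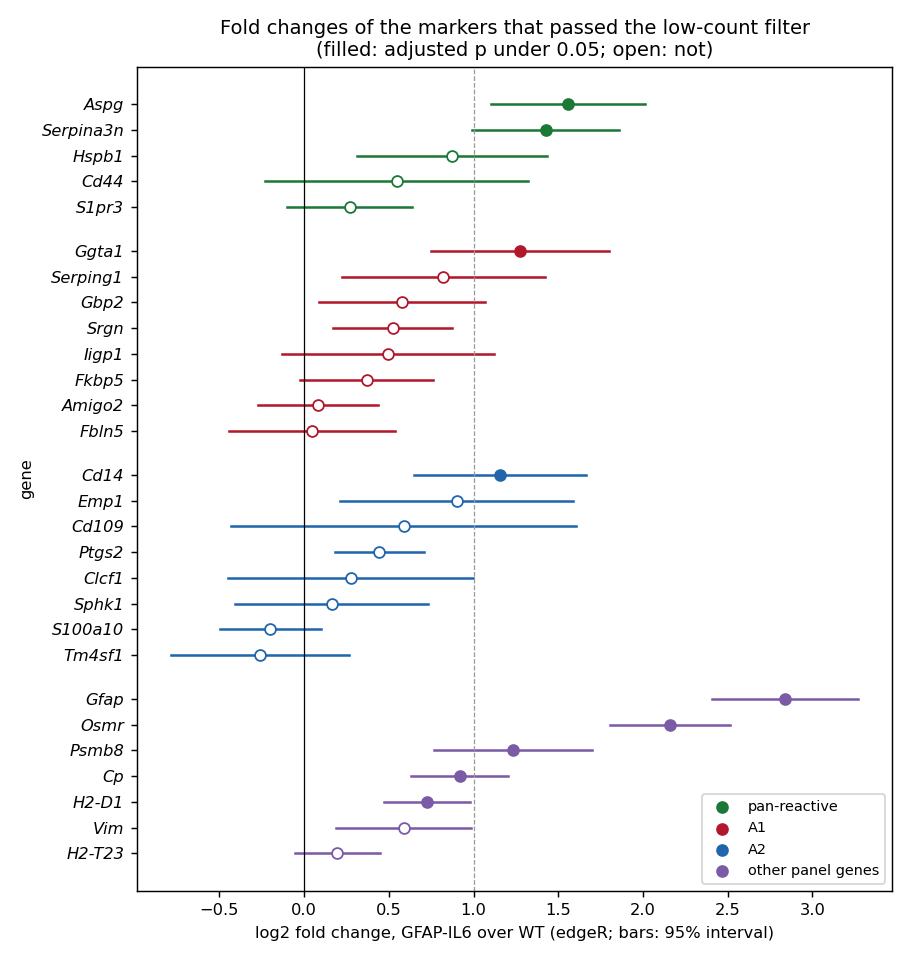
Log2 fold change of GFAP-IL6 over WT for the 21 markers tested and the 7 other genes of the panel, with 95% intervals, by subset. Filled points have an adjusted p under 0.05 by edgeR, the dashed line marks a log2 fold change of 1, and filled points lie at the top of each subset, at 1.56 (Aspg), 1.27 (Ggta1), 1.16 (Cd14) and 2.84 (Gfap).

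The 3 subsets were then set side by side, as a description with no test of the subsets. The median log2 fold change was 0.87 over the 5 pan-reactive markers tested (range 0.27 to 1.56), 0.51 over the 8 A1 markers tested (0.05 to 1.27) and 0.36 over the 8 A2 markers tested (-0.26 to 1.16). The median over all genes tested was -0.0038, and 49.4% of them had a positive estimate. With each member, tested or not, taken as the log2 ratio of mean CPM, and WT set to 3 counts where each WT library was at or under 3, the medians were 0.87 over 9 pan-reactive, 0.53 over 8 A1 and 0.32 over 11 A2 markers. These medians rest on few genes, and the pan-reactive one lay between 0.78 and 1.44 when 1 library was left out. The low-count filter was applied anew in each such fit, so that the markers tested differed as well. The value of 1.44 came from the fit without WT replicate 1, in which Lcn2 and Steap4 were also tested. Hspb1, which gave the median of 0.87 in the main fit, was at 0.90 in that fit.

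The subsets also varied between the GFAP-IL6 mice. Relative to the WT mean, the median log2 ratio of the pan-reactive markers tested was 0.87, 0.65 and 1.06 in GFAP-IL6 replicates 1, 2 and 3. That of the A1 markers was 0.43, 0.41 and 0.50, which was the narrowest range. That of the A2 markers was 0.04, 0.57 and 0.50, with GFAP-IL6 replicate 1 near the WT mean. The summed level of the pan-reactive markers was 29.4 to 37.1 TPM in WT and 63.7, 83.0 and 109 TPM in GFAP-IL6 replicates 1, 2 and 3. The summed A1 markers, at 46.9 to 58.0 TPM in WT and 68.8 to 84.5 TPM in GFAP-IL6, did not overlap between groups either. The summed A2 markers did, at 89.3 to 112 TPM in WT and 93.8 to 119 TPM in GFAP-IL6. S100a10 held most of the A2 sum. Serpina3n was the largest part of the pan-reactive sum, at 15.9 ± 2.05 TPM in WT and 45.1 ± 13.7 TPM in GFAP-IL6 (SD, n = 3 each).

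**Figure D3:**
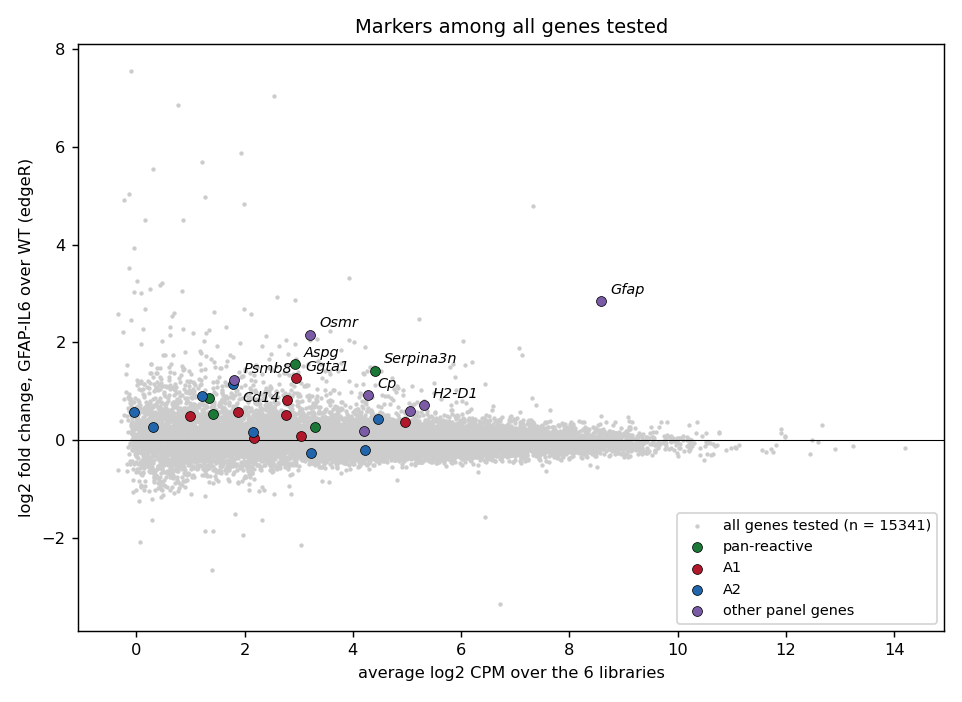
Log2 fold change of GFAP-IL6 over WT against the average log2 CPM for all 15341 genes tested (grey), with the tested markers coloured by subset. Markers with an adjusted p under 0.05 by edgeR are named, and the members among them, Aspg, Serpina3n, Ggta1 and Cd14, lie above a log2 fold change of 1.

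The published panel holds 7 further genes outside the 30 members, and 5 of these 7 were higher in GFAP-IL6, with 0 lower. Gfap, at a log2 fold change of 2.84, and Osmr, the receptor for the IL6 family cytokine oncostatin M, at 2.16 ± 0.16 (SE; adjusted p of 8.36e-06 by edgeR), exceeded every tested member. Psmb8, an immunoproteasome subunit, had 1.23, Cp (ceruloplasmin, a ferroxidase) had 0.92 and H2-D1, a class I histocompatibility gene, had 0.72. Vim, the intermediate filament vimentin, and H2-T23 did not pass, with adjusted p values of 0.111 and 0.355. Over the whole panel of 37 genes, 9 changed and all 9 were higher.

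Genes around these markers were examined as lists. Of 14 genes of the IL6 receptor and STAT3 pathway 7 were higher and 0 lower, and those with the smallest p were Osmr, which the panel also holds, Socs3 at a log2 fold change of 1.92 and Stat3 at 0.80, with adjusted p values of 8.36e-06, 7.37e-05 and 0.000858 by edgeR. Il1a, Tnf and the C1q subunits are known as microglial factors that induce A1 markers in cultured astrocytes. Of these 5 genes, of which C1qa is also in the microglia list, 4 were higher, with log2 fold changes of 1.54 for C1qb, 1.61 for C1qa, 1.504 for C1qc and 1.24 for Il1a. Tnf was not tested, with 1, 4 and 1 counts in WT against 0, 1 and 2 in GFAP-IL6.

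Markers of other cell types moved with the comparison as well. Beside the microglia markers, 6 of 10 endothelial markers were higher, those with the smallest p being Flt1, Ly6c1 and Cldn5, and their summed level was 206 to 226 CPM in WT and 315 to 359 CPM in GFAP-IL6. Of 9 pericyte and fibroblast markers 1 was higher, Rgs5, at summed levels of 197 to 253 CPM in WT and 258 to 314 CPM in GFAP-IL6. Of 9 oligodendrocyte and 9 neuronal markers 0 changed, although 4 neuronal markers were lower at an unadjusted p under 0.05. None of the 10 markers of infiltrating leukocytes passed the filter, Cd3d was at 0 in every library, and their summed level was 0.784 to 1.73 CPM in WT and 1.98 to 3.80 CPM in GFAP-IL6. Several members, among them Cd14, Srgn, Tm4sf1 and Ggta1, are also expressed outside astrocytes, and the part of these cell types in the members' levels was not tested.

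**Figure D4:**
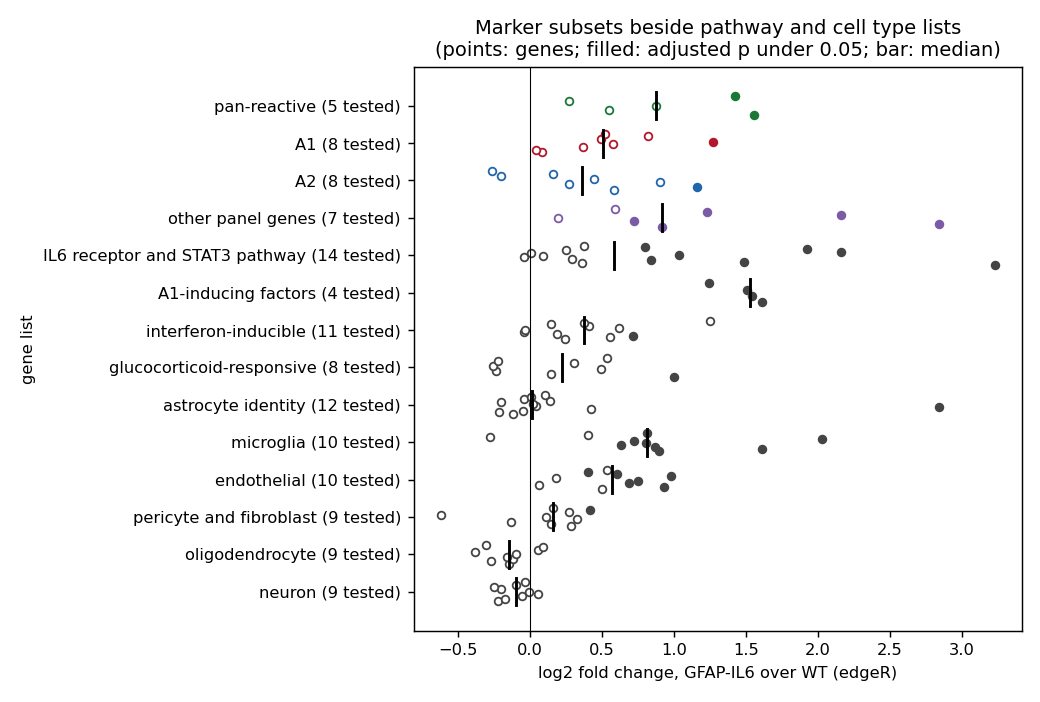
Log2 fold change of GFAP-IL6 over WT for the tested genes of each marker subset and of the pathway and cell type lists. Points are genes, filled where the adjusted p was under 0.05 by edgeR, and bars are medians, which were 0.87, 0.51 and 0.36 for the pan-reactive, A1 and A2 markers.

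Promoters of members were searched for the letters of 3 motifs, those bound by STAT factors, by interferon-regulated factors and by NF-kappaB. The RefSeq windows of GRCm38.p6 run from 250 bases before to 50 bases after each transcript start, and 32 windows of 24 members were searched. The motifs, searched on both strands, were the STAT core TTCNNNGAA, the core of the interferon-stimulated response element (GAAA, any 2 bases, GAAA) and a kappaB core (GGG, any 2 bases, TTTCC). They were in 8.3%, 3.44% and 1.63% of all 32851 windows, and in 5, 6 and 2 of the 32 windows of members. A match describes letters only. No window was used for Cd109, Cd14, Clcf1, Iigp1, S100a10 and Serping1.

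The bases from 250 to 11 before the start are printed for the 3 members that rose and were searched, with motif matches in capitals. The windows lie at chr12:104406458-104406697 on the plus strand, chr12:112106433-112106672 on the plus strand and chr2:35461460-35461699 on the minus strand, outside annotated exons, and that of Ggta1 is at a transcript start inside the gene. A kappaB core stands in that of Serpina3n, and none of the 3 motifs is in those of Aspg and Ggta1.
Serpina3n: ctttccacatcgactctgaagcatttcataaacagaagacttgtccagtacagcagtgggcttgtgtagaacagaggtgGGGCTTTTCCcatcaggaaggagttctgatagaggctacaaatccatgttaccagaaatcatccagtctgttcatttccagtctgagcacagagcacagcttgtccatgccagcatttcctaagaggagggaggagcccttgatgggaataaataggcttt
Aspg: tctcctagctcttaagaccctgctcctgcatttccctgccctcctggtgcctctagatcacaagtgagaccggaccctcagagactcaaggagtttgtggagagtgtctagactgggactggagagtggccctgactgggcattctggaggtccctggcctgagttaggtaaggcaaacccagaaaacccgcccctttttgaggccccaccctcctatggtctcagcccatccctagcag
Ggta1: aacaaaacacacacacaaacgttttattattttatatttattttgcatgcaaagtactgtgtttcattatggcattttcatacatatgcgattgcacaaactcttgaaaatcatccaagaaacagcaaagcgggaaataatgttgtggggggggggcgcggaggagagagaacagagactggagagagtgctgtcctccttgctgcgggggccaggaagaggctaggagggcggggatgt

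The STAT core was found near the starts of Steap4, Emp1, Sphk1 and Tgm1, of which Steap4 and Tgm1 were too low to be tested and Emp1 and Sphk1 did not pass the test. The matches are shown with 8 bases on each side and the core in capitals, beside those of Gfap and Socs3, which rose. All are written on the strand of the gene, and those of Sphk1, Gfap and the second of Emp1 lie wholly or partly in annotated exons of these genes. The matches of Emp1, Sphk1, Tgm1, Gfap and Socs3 are at transcript starts inside these genes. Only that of Steap4 lies before the annotated gene.
Steap4, chr5:7960348-7960372: ttgaactcTTCCCGGAAactttgct
Emp1, chr6:135362803-135362827: caacagggTTCTTTGAAttgatggc
Emp1, chr6:135362901-135362925: cagactgaTTCATAGAAactccttt
Sphk1, chr11:116531788-116531812: gagtcaccTTCTCGGAAggcactcg
Tgm1, chr14:55713649-55713673: gacctcagTTCCTAGAAaggagaaa
Tgm1, chr14:55713540-55713564: ttccccttTTCCCAGAAactcggcc
Gfap, chr11:102897186-102897210: gggggtgcTTCCAGGAAgtcagggg
Socs3, chr11:117969504-117969528: aaccagccTTCTTAGAAgggagggg

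The interferon-stimulated core was found in windows of Cxcl10, Gbp2, Tm4sf1, Srgn, Fbln5 and Tgm1. Those of Cxcl10 and Gbp2, known interferon targets, are printed in the same way, and neither gene passed the test here. The stretch of Gbp2 lies partly in an annotated exon of the gene.
Cxcl10, chr5:92349085-92349110: acgctttgGAAAGTGAAActtacctc
Gbp2, chr3:142620596-142620621: tcttttagTTTCACTTTCactgtctt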

How the data were processed

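TruSeq libraries of 3 WT and 3 GFAP-IL6 mice were compared. The count table deposited by the authors holds raw counts per gene and a gene length in bases. Per the submitters, alignment was with STAR 2.4 to mm10 and counting over GENCODE genes with featureCounts. The submitters' processing notes name hg19, but the identifiers are of mouse. The strand setting and the treatment of reads that align to several genes are not given for these libraries in the sources used here. Groups and replicate numbers come from the sample titles, and per the study each library came from a separate mouse.

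Genes were tested with edgeR 4.0.16 (R 4.3.3) by its quasi-likelihood test, after TMM scaling and filterByExpr, and p values were adjusted by Benjamini-Hochberg across 15341 genes. Standard errors were derived from the F statistic. The design held the genotype alone. DESeq2 1.42.0, limma 3.58.1 (voom) and edgeR with other settings were alternatives, and all fits but the thinned and left-out ones were tested on simulated data. DESeq2 was the tool of the study. CPM uses TMM-scaled totals, and TPM uses the deposited lengths. A group with 3 counts or fewer in each library was treated as being at the floor. Ratios of pooled counts have exact conditional intervals, which cover counting error only, as reads carried no molecular identifiers.

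All 30 members were named, with Il6 and Gfap as checks and at most 3 genes with the smallest p from each other list, beside others chosen after their values were seen (Tnf, Cd3d, Ttr, the other panel genes and relatives of members). The members, lists and motifs were chosen with earlier results of these data known. Positions and exon overlaps are from GENCODE M21 on GRCm38, which is mm10, where all 30 members matched by identifier. Chi-square per degree of freedom between libraries was 2.23 or more, so that no pair was a duplicate.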

Additional observations from a re-analysis of the deposited data

How the results depend on the processing

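The 4 members that rose did so under RLE size factors, DESeq2 with and without its prior, limma-voom and with each library thinned to the lowest depth. Without the low-count filter 7 members changed, the same 4 with Lcn2, Ptgs2 and Serping1, so that A1 and A2 had 2 each and the medians were 1.42 for pan-reactive and 0.22 for A2 markers. They were 1.43 and 0.23 with DESeq2 without prior, which tested 25 members. The prior of DESeq2, which shrinks fold changes by construction, gave 48 genes past both thresholds in place of 211, and medians of 0.18 for pan-reactive, 0.27 for A1 and 0.0742 for A2 markers. After thinning, the A1 median was 0.45. Leaving out 1 library gave 129 (without GFAP-IL6 replicate 3) to 239 genes past both thresholds. By an adjusted p under 0.05 alone, the rule for the members, 439 genes changed in the main fit. Leaving out 1 library gave 187 (without GFAP-IL6 replicate 3) to 1061 (without WT replicate 1) such genes. With them 2 to 3 pan-reactive, 0 to 2 A1 and 0 to 2 A2 markers changed, and the medians were 0.78 to 1.44, 0.44 to 0.58 and 0.23 to 0.52. The filter was applied anew in these fits, with 21 to 24 members tested, so that the medians cover different markers. No A1 or A2 marker changed without GFAP-IL6 replicate 3, and no A2 marker without GFAP-IL6 replicate 2. Signs turned in these fits for Fbln5 (-0.0864 to 0.26), Tm4sf1 (-0.46 to 0.0655) and Sphk1 (-0.0557 to 0.44). The cause of these turns in sign was not tested.

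Replicate numbers were not taken as pairs in the main fit. Deviations of same-numbered libraries from their group means correlated at 0.0996, 0.0147 and 0.0211, which with 3 libraries per group cannot exclude a pairing. With the replicate block 750 in place of 439 genes had an adjusted p under 0.05, and 5 members changed, Ptgs2 beside the same 4, so that A2 had 2. WT replicates 1 and 3 correlated best with the GFAP-IL6 library of their own number, and WT replicate 2 with GFAP-IL6 replicate 3. At these depths 9 members were too low to test, and 11 of the 21 intervals reached a log2 fold change of 1.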

Other observations

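GFAP-IL6 mice differed in which markers were high. Lcn2 was at 0.0896, 2.77 and 1.68 CPM in GFAP-IL6 replicates 1, 2 and 3, and Fkbp5 was highest in replicate 2, whereas Cd44 was lowest there, at 1.19 CPM. Most members had their highest GFAP-IL6 level in replicate 3, among them every pan-reactive marker but Lcn2, and Ggta1, Serping1, Gbp2, Srgn, Emp1 and Cd14. Like Lcn2 and Fkbp5, Iigp1, Amigo2, Clcf1, Sphk1 and Ptgs2 were highest in replicate 2, and Tgm1 was highest in replicate 1. Il6 itself had 12, 10 and 24 counts in GFAP-IL6 replicates 1, 2 and 3, which were 1.08, 1.32 and 2.68 CPM. With 3 mice no relation between these levels was tested.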
